A study of Mus musculus with 10 samples.

Results

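Lymphoid cells were a rare population among single-cell transcriptomes of the embryonic mouse pancreas, with pools from E12.5, from E14.5 and from E17.5 (E, embryonic day). A barcode was counted as lymphoid when it held at least 200 genes and at least 1 unique molecular identifier (UMI, a captured transcript molecule) of each of Ptprcap (a protein bound to CD45), Coro1a (a leukocyte actin regulator) and Rac2 (a small GTPase of blood cells). It also had to hold fewer than 3 UMIs of C1qa, C1qb and C1qc together, under 0.2% of its UMIs in the mast cell genes Cma1, Cpa3 and Tpsb2, under 0.5% in the neutrophil genes S100a8 and S100a9, at most 2 UMIs of Lyz2, and 0 UMIs of Epcam and Pecam1. The cells were thus chosen by measured values of these genes, and the criteria selected 783 of 57982 barcodes. Because the 3 leukocyte genes were required and the genes of macrophages, mast cells, neutrophils, epithelium and endothelium were limited, their levels among the selected cells are descriptions only. No clustering entered the choice.

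The study charted the cell types of the developing pancreas by droplet sequencing of the 3' ends of transcripts. In the first version (v1), all live cells of pancreata of Swiss Webster embryos were run with the version 1 kit, in 1 library at E12.5, 2 batches at E14.5 and 1 library at E17.5. Batch 1 of v1 held E14.5 alone, whereas batch 2, taken on another day, held separate pools of all 3 stages, so the v1 libraries of E12.5 and E17.5 share a batch with 1 of the E14.5 libraries. In the second version (v2), live cells of Swiss Webster embryos without CD140a, the mesenchymal PDGF receptor alpha, were run with the version 2 kit, in 1 library at E12.5, 1 at E14.5 and 2 technical wells of 1 preparation at E17.5, which were summed here. A further E14.5 library, also from the version 2 kit, held live GFP+ and Tdtomato+ cells of Fev-Cre; ROSA26mTmG embryos, in which cells whose lineage expressed the Cre under the Fev promoter turn from Tdtomato to GFP. Pancreata of a library were pooled, and dissociation took 10 min at E12.5, 15 min at E14.5 and 30 min at E17.5. Stage, litter and dissociation time therefore cannot be told apart, nor, within the Swiss Webster libraries, can the sort and the kit version.

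Lymphocytes fall into B cells, T cells and innate lymphoid cells, which carry no rearranged antigen receptor and include natural killer (NK) cells and groups 1, 2 and 3 (ILC1, ILC2, ILC3). Lymphoid tissue inducer (LTi) cells belong with the ILC3. They depend on signals through the receptor of Il7r, make lymphotoxin from Lta and Ltb, and in the fetus start the formation of lymph nodes and Peyer's patches. B cells of the fetus arise first in the liver, where progenitors with the surrogate light chain genes Vpreb1, Vpreb3 and Igll1 divide before they make a complete antibody.

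The libraries held between 15671934 and 196793242 UMIs in all. The median depth of a lymphoid cell ranged from 2302.5 UMIs in E17.5 v1 to 8774 in the Fev-Cre library, and every selected cell held at least 1000 UMIs, so shares of cells with a transcript are also given after each cell was thinned to 1000 UMIs. Haemoglobin transcripts, a sign of free erythroid RNA or of attached red cells, took 0 to 1.29% of the lymphoid UMIs in the E12.5 and E14.5 libraries, but 5.27% in E17.5 v1 and 7.60% in E17.5 v2. No barcode of a selected cell was shared between libraries. Intervals are exact 95% intervals and cover counting error only.

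Lymphoid cells made up less than 1.5% of the barcodes in every library of E12.5 and E14.5 and a larger share in both E17.5 libraries. There were 7 of 4618 barcodes in E12.5 v1, which is 0.152% (95% interval 0.0610 to 0.312), and 36 of 13182 in E12.5 v2, or 0.273% (0.191 to 0.378). Without cells that carry Gata2 and a mast cell gene, described below, these become 3 cells (0.0650%) and 29 cells (0.220%). At E14.5 the v1 batches held 13 of 3562 (0.365%, 0.194 to 0.623) and 52 of 4558 (1.14%, 0.853 to 1.49). The E14.5 v2 library held 47 of 9086 (0.517%, 0.380 to 0.687) and the Fev-Cre library 10 of 7897 (0.127%, 0.0607 to 0.233). At E17.5 the cells numbered 156 of 2309 in v1 (6.76%, 5.77 to 7.86) and 462 of 12770 in v2 (3.62%, 3.30 to 3.96). The limit of 200 genes kept 2309 of 4635 and 12770 of 17433 barcodes at E17.5, against 4618 of 4631 and 13182 of 13197 at E12.5. The paper determined the many barcodes under this limit in E17.5 v1 to be red blood cells. The size of the E17.5 shares thus depends on this limit. The intervals of both E17.5 libraries lay above those of all 6 earlier libraries. The E14.5 v1 batches, pools of different litters taken on different days, did not overlap each other, so pools of 1 stage differed by more than counting error. Within batch 2 of v1, which held a pool of every stage, the shares were 0.152%, 1.14% and 6.76%. The technical wells of E17.5 v2 held 245 and 217 cells, 3.81% and 3.42% of their barcodes.

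Against macrophages, the order of the libraries changed. Macrophages were defined here as barcodes with 3 or more UMIs of the C1q genes and at least 1 UMI of Lyz2. They also had 0 UMIs of Epcam and Pecam1 and under 0.2% of their UMIs in the mast cell genes. Lymphoid cells were 29.2% of the lymphoid and macrophage barcodes together in E12.5 v1 and 6.62% in E12.5 v2. They were 22.4% and 69.3% in the E14.5 v1 batches, 23.5% in E14.5 v2 and 13.9% in the Fev-Cre library. At E17.5 they were 91.8% in v1 (156 lymphoid cells and 14 macrophages) and 46.0% in v2 (462 and 543). The libraries of E14.5 and E17.5 overlapped on this scale, since batch 2 of E14.5 v1 lay above E17.5 v2. Shares of all barcodes and shares of lymphoid cells plus macrophages thus gave different orders. The part of dissociation, sort, litter and stage in either share was not tested.

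**Figure D1:**
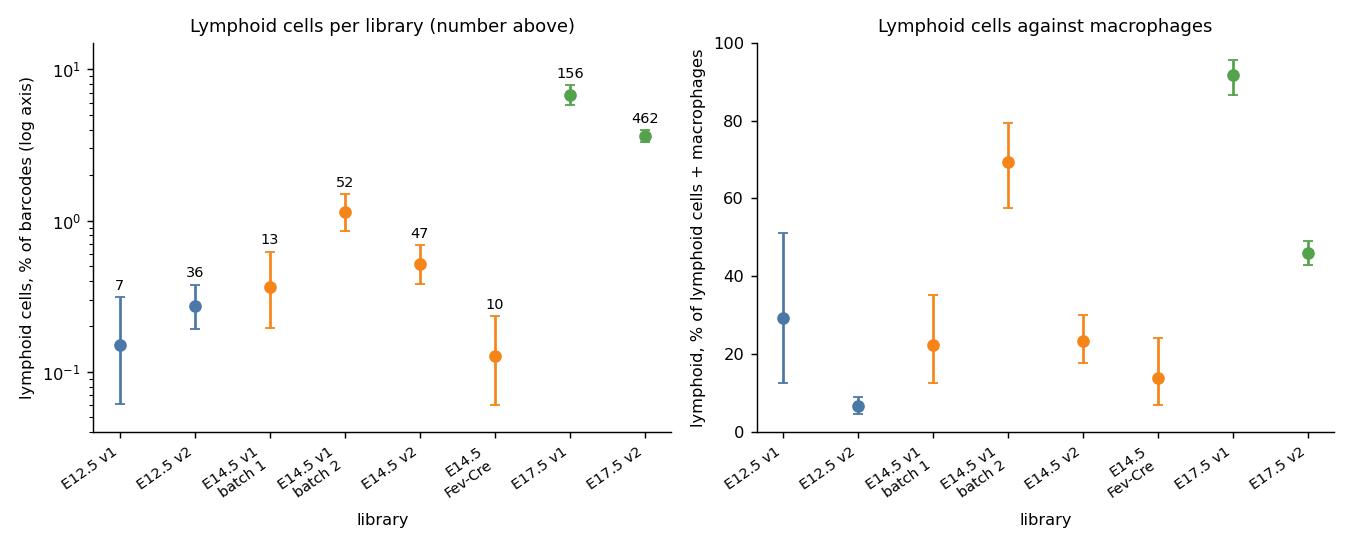
Lymphoid cells in each of the 8 libraries, as a percent of all barcodes with at least 200 genes on a log axis (left) and as a percent of lymphoid cells plus macrophages (right). Points are libraries and bars exact 95% binomial intervals; on the left the E17.5 libraries sit at 6.76% and 3.62%, above all others, while on the right E14.5 v1 batch 2 at 69.3% lies between them.

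Genes that the criteria did not use were also read in the selected cells. Ltb and Il22 were among the markers that named the cells, so the values of both are descriptions and no independent check. Ltb, the membrane lymphotoxin chain, was detected in 3 of 7, 22 of 36, 9 of 13, 36 of 52, 25 of 47, 8 of 10, 106 of 156 and 378 of 462 cells, in the order E12.5 v1, E12.5 v2, E14.5 v1 batch 1, batch 2, E14.5 v2, Fev-Cre, E17.5 v1 and E17.5 v2, an order kept for all lists of 8 values below. Il7r, the interleukin-7 receptor alpha chain, was detected in 2, 10, 2, 30, 29, 8, 76 and 382 cells. In E17.5 v2, 2.97% of epithelial cells and 7.73% of macrophages carried an Ltb UMI and 0.473% and 0.921% an Il7r UMI, at median depths of 11669.5 and 10191 UMIs against 6219 in the lymphoid cells. After thinning, Ltb was found in 19.4% of the E12.5 v2 cells, 23.1 to 50.0% of the cells of the E14.5 libraries and 60.9% and 64.5% at E17.5. Il7r was found after thinning in 11.1% of E12.5 v2 cells, 7.69 to 31.9% at E14.5, and 26.3% and 51.1% in E17.5 v1 and v2. Ltb was thus carried, without thinning, by the greater part of the cells in every library of E14.5 and E17.5.

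At E12.5 the label held only in part. Of the 43 cells, 36 carried Tyrobp, 33 carried Fcer1g (adaptors of NK and myeloid receptors) and 22 carried Fcgr3 (a low-affinity IgG receptor), against 54, 74 and 38 of 122 at E14.5 and 269, 358 and 135 of 618 at E17.5. These were the most common of 12 monocyte and macrophage genes at E12.5. Ccr2 was carried by 16 of the 43, Cx3cr1 by 10, Aif1 and Ms4a6c by 2 each, Csf1r, Adgre1, Ly6c2 and Cd14 by 1 each and Mrc1 by 0. Of the shared lymphoid genes, Id2 was carried by 33 and Il2rg by 25, but Tcf7 by 9 and Lck by 6. The progenitor genes Kit, Cd34 and Meis1 were carried by 15, 12 and 12 of the 43, against 24, 20 and 17 at E14.5 and 145, 40 and 49 at E17.5, while Il7r was carried by 12 of the 43. Gata2, a transcription factor of mast cells, basophils and progenitors, was carried by 5 of 7 cells in E12.5 v1 and 9 of 36 in E12.5 v2, against 3, 5, 1 and 1 cells of the E14.5 libraries and 5 and 12 at E17.5. Of the 14 Gata2+ cells of E12.5, 11 also held Cpa3 (mast cell carboxypeptidase) under the limit of the criteria, 13 held Fcgr3, 13 held Cd3g and 8 held Il13, while 1 held Il7r. Cells with Gata2 and at least 1 UMI of Cma1, Cpa3 or Tpsb2 made up 4 of 7, 7 of 36, 2 of 13, 5 of 52, 1 of 47, 1 of 10, 3 of 156 and 7 of 462. These 30 cells were 57.1% and 19.4% of the E12.5 libraries and 1.92% and 1.52% of the E17.5 libraries, and no such cell was among those with ILC3 genes or B genes described below. In all, 24 cells carried at least 2 granulocyte precursor genes (such as Mpo, myeloperoxidase, and Elane, neutrophil elastase), 16 of them at E17.5. How many of them were also cells with Gata2 and a mast cell gene was not counted.

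**Figure D2:**
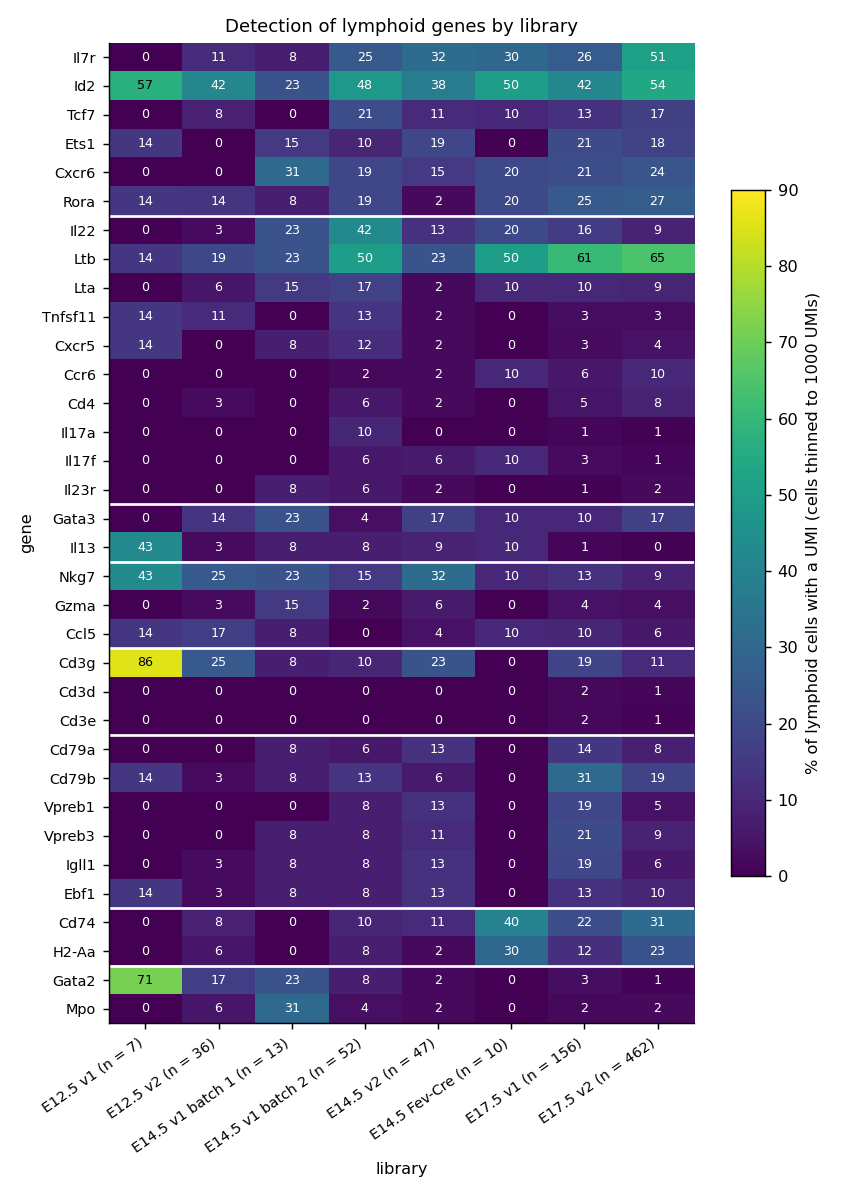
Percent of lymphoid cells with at least 1 UMI after thinning each cell to 1000 UMIs, for genes (rows) of the ILC3, ILC2, NK, T, B and antigen-presentation lists across the 8 libraries (columns), with Gata2 and Mpo at the foot. Lighter shades stand for higher percents, which are printed in each field. Il22 reaches 42.3% in E14.5 v1 batch 2 and Ltb 64.5% in E17.5 v2, and Vpreb3 is highest in E17.5 v1.

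Il22, a cytokine of ILC3 and of some T cells that acts on epithelium, was spread unevenly over libraries and cells. The gene lies on chromosome 10 (GRCm38, 118204942 to 118210047, plus strand), near the closely related Iltifb at 118289629 to 118295038 on the minus strand, so reads shared by the copies make its level uncertain. It was detected in 0 of 7, 1 of 36, 4 of 13, 23 of 52, 6 of 47, 3 of 10, 27 of 156 and 74 of 462 cells, 138 in all. As counts scaled to 1000000 lymphoid UMIs of a library (CPM), Il22 stood at 0 and 45.0 in the E12.5 libraries, at 1432, 3312, 775 and 165 in the E14.5 libraries, and at 1405 and 230 in E17.5 v1 and v2. Every E14.5 and E17.5 library lay above both E12.5 libraries, and the E14.5 and E17.5 libraries overlapped. After thinning, Il22 was found in 0%, 2.78%, 23.1%, 42.3%, 12.8%, 20.0%, 16.0% and 8.66% of cells. In E17.5 v2 it was found in 0.276% of epithelial cells, 0.234% of mesenchymal cells and 0.184% of macrophages without thinning.

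Most of the Il22 transcripts sat in a few cells with many copies. Among Il22+ cells the median was 13 UMIs in the 1 cell of E12.5 v2, 21.5, 27 and 40 UMIs in the E14.5 v1 batches and E14.5 v2, 7 in the Fev-Cre library, 23 in E17.5 v1 and 4 in E17.5 v2. The highest cell held 118 UMIs in E14.5 v1 batch 2 and 104 in E17.5 v2, and Il22 took up to 4.71% of all UMIs of a cell in E17.5 v1. In E17.5 v2, 24 of 74 Il22+ cells held 10 or more UMIs and 15 held a single UMI, whereas 16 of 27 held 10 or more in E17.5 v1 and none held a single UMI. The 2 E17.5 libraries thus differed in both the level and the form of the distribution, and they differ in litter, sort and kit version.

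**Figure D3:**
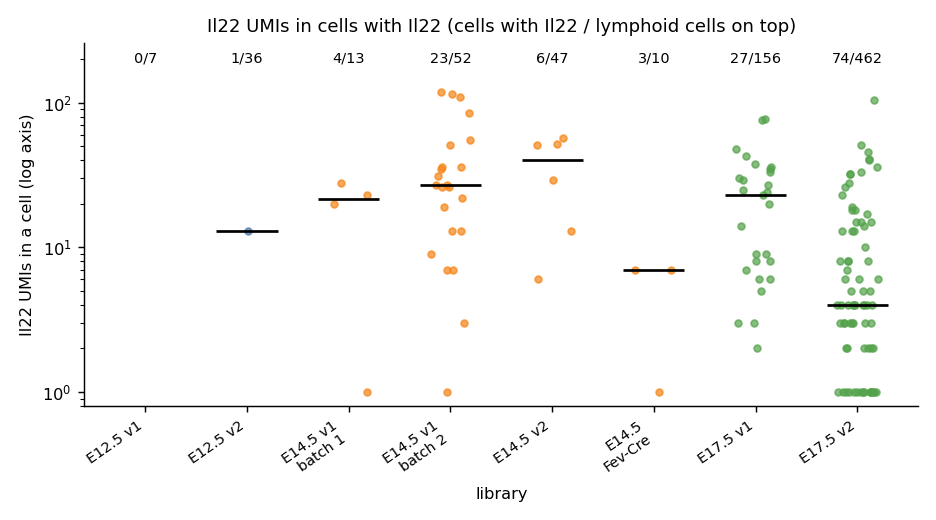
Il22 UMIs in each Il22+ lymphoid cell by library, on a log axis, with a line at the median. Cells with over 100 UMIs are found in E14.5 v1 batch 2 (up to 118) and E17.5 v2 (up to 104), and the median is 23 in E17.5 v1 and 4 in E17.5 v2.

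The criteria did not take in every cell rich in Il22. Of all Il22 UMIs of the series, 60.1% (2657 of 4424) were in the lymphoid cells. Of 107 barcodes with at least 10 Il22 UMIs, 67 were selected and 40 were not, and of the latter 14 held Pecam1, 13 held Epcam, 12 lacked Ptprcap, 10 lacked Coro1a and 1 lacked Rac2. The loss was greatest in E14.5 v2, where 5 of 14 such barcodes were selected, and in the Fev-Cre library, where 0 of 4 were. Over all genes of the rule, 149 barcodes failed only on Pecam1, 142 only on the mast cell genes, 139 only on Ptprcap, 115 only on Epcam, 66 only on Coro1a, 33 only on Lyz2, 13 only on Rac2, 7 only on C1q and 4 only on S100a8 and S100a9. Whether the Epcam and Pecam1 UMIs came from free RNA, from attached cells or from the cells themselves was not tested.

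Genes of LTi cells and ILC3 accompanied Il22. Of the 138 Il22+ cells, 136 carried Ltb, against 451 of the 645 cells without Il22, and 126 against 413 carried Il7r. Id2, a transcriptional inhibitor that all innate lymphoid cells need, was carried by 126 against 454, and Tcf7, a transcription factor of early lymphoid cells, by 100 against 223. The chemokine receptors were found in Il22+ cells and others as follows, Cxcr6 in 98 and 277, Ccr6 in 62 and 127 and Cxcr5 in 57 and 86. Il23r, the receptor of a cytokine that drives Il22, was found in 36 and 38. Of the genes of other lineages, Cd3g was found in 5 of the 138 against 209 of the others, Nkg7 in 12 against 226, Cd79a in 1 against 103, and Vpreb3 and Gata2 in 0 against 110 and 41. Other such genes were common in them, with Fcer1g in 110 against 355, Gata3 in 59 against 236, Cd74 in 53 against 225, Cd79b (the partner of Cd79a) in 48 against 313 and Tyrobp in 40 against 319. These pairs are descriptions over cells of shared libraries, and deeper cells hold more genes of every kind.

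Ccr6, the receptor that guides LTi cells to CCL20, was not detected in the lymphoid cells of 3 earlier libraries. The gene (chromosome 17, 8236043 to 8257141, plus strand) was found in 0, 0, 0, 5, 4, 2, 18 and 160 cells and at 0, 0, 0, 22.8, 22.4, 32.9, 65.5 and 105 CPM. The 43 cells of E12.5 allow a share of cells with a Ccr6 UMI of up to 6.98%. Barcodes outside the selected cells held 8 Ccr6 UMIs in E12.5 v2 and 5 in E14.5 v1 batch 1. Both E17.5 libraries lay above all E14.5 libraries, and in E17.5 v2 epithelial cells carried it in 0.138%. Cd4, which LTi cells of the fetus can express without a T cell receptor, was found in 0, 2, 1, 5, 3, 2, 13 and 135 cells, at 0 and 6.92 CPM at E12.5, 11.2 to 39.8 at E14.5, and 45.8 and 79.6 at E17.5. Tnfsf11, the ligand RANKL, stood at 31.5 and 34.6 CPM in the E12.5 libraries, at 59.7, 187, 59.6 and 43.9 in the E14.5 libraries and at 45.8 and 25.3 in E17.5 v1 and v2. The E14.5 and E17.5 libraries of Tnfsf11 overlapped. Lta, the secreted lymphotoxin chain, varied without order, from 26.1 to 236 CPM at E14.5 and 113 and 227 at E17.5. Il17a, a further cytokine of ILC3 and some T cells, was seen in 7 cells of E14.5 v1 batch 2, 2 of E17.5 v1 and 8 of E17.5 v2, and in 0 cells elsewhere.

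Counted as a list, at least 2 of 13 LTi and ILC3 genes were found after thinning in 1, 2, 4, 27, 7, 4, 45 and 152 cells. To describe the cells further, those with 2 or more of Il22, Il17a, Il17f, Il23r, Ccr6, Cxcr5 and Tnfsf11 were set apart as ILC3-gene cells. This set and the sets below were drawn up after the values had been seen, so they are descriptions and support nothing. ILC3-gene cells numbered 1, 2, 4, 24, 11, 4, 19 and 146, in all 211 of 783 (26.9%, 23.9 to 30.2). Their share was 14.3% and 5.56% in the E12.5 libraries, 30.8%, 46.2%, 23.4% and 40.0% in the E14.5 libraries, and 12.2% and 31.6% in E17.5 v1 and v2. Applied to cells thinned to 1000 UMIs, the same definition found 0%, 0%, 7.69%, 23.1%, 4.26%, 20.0%, 7.69% and 5.63%. The E17.5 libraries, whose intervals lay apart before thinning (7.49 to 18.4 and 27.4 to 36.1), then overlapped (4.04 to 13.1 and 3.71 to 8.14).

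The genes carried by ILC3-gene cells of E14.5 and E17.5 are given next without a test. Of the E14.5 cells 4 and 24 were from the v1 batches, whereas 146 of the 165 E17.5 cells were from v2, so stage and kit version differ together here, and Il22 and Tnfsf11 help to define the set. At E17.5, 165 of 165 carried Ltb, 159 Il7r, 158 Id2, 126 Cxcr6, 119 Tcf7, 89 Lta and 87 Cd4. Of the 43 at E14.5, 40 carried Ltb, 36 Il7r, 33 Tcf7 and 10 Cd4. Il22 was carried by 30 of 43 at E14.5 and 81 of 165 at E17.5, and Tnfsf11 by 27 of 43 and 50 of 165. Nkg7, a granule protein of NK and other cytotoxic cells, was found in 15 of 43 and 10 of 165. Cd74, the invariant chain that escorts MHC class II molecules, was found in 9 of 43 and 92 of 165.

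Part of the lymphoid cells carried MHC class II genes. Cd74 was detected in 0, 7, 0, 9, 9, 5, 45 and 203 lymphoid cells, at 0, 204, 0, 1546, 865, 1908, 2206 and 2592 CPM. The class II alpha chain gene H2-Aa was detected in 0, 4, 0, 5, 3, 3, 23 and 127 cells. The E17.5 libraries lay above the E14.5 libraries for Cd74, and in E17.5 v2 the gene was also found in 47.9% of macrophages, 5.42% of epithelial and 9.37% of mesenchymal cells without thinning. Of the 278 Cd74+ cells, 156 carried H2-Aa, 137 Ccr6 and 107 Cd4, whereas 11 carried Siglech, a plasmacytoid dendritic cell lectin, and 5 Itgax, the integrin CD11c. Among the 505 cells without Cd74, 52 carried Ccr6 and 54 Cd4. These counts pool cells of libraries that differ in depth and stage, and no difference was tested. At E17.5, H2-Aa was carried by 150 of all 618 cells. These included 50 of 165 ILC3-gene cells, 5 of 91 B-gene cells and 8 of 72 NK-gene cells. Most of its carriers thus lay outside these sets. Xcr1, a marker of conventional dendritic cells, had 0 UMIs in all 783 cells, which allows a share of cells with a UMI of up to 0.383%. Other genes of the dendritic cell list were more common among the 783, with Tcf4 in 175, Irf8 in 142, Ccr7 in 125 and Ccr9 in 104. Ciita was found in 32, Cd209a in 8 and Clec9a in 4. How many of these cells carried Cd74 is not given, so the counts do not place the Cd74+ cells in or outside the dendritic lineage.

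Genes of B cell progenitors marked a second group. Cd79a, a signalling chain of the B cell receptor (chromosome 7, 24897381 to 24902197, plus strand), was detected in 0, 1, 1, 5, 8, 0, 32 and 57 cells, at 0, 20.8, 19.9, 57.1, 168, 0, 153 and 157 CPM. Vpreb3, a surrogate light chain gene (chromosome 10, 75943057 to 75949657, plus strand), was detected in 0, 2, 1, 6, 8, 0, 39 and 54 cells, at 0, 13.8, 59.7, 164, 153, 0, 463 and 237 CPM. For Vpreb3 both E17.5 libraries lay above all earlier ones, while for Cd79a the E14.5 v2 library lay above them. In E17.5 v2, 7.90% of epithelial cells carried a Cd79a UMI and 0.335% a Vpreb3 UMI before thinning, against 12.3% and 11.7% of lymphoid cells. After thinning, Cd79a was found in 1.44% of those epithelial cells and 7.79% of the lymphoid cells.

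Of the 104 Cd79a+ lymphoid cells, 101 carried Vpreb3, against 9 of the 679 others. Vpreb1, the partner of Igll1 in the pre-B cell receptor, was found in 74 against 7 and Igll1 in 72 against 6. The B lineage transcription factor Ebf1 was found in 96 against 20, Pax5 in 28 against 1, and Rag1, which cuts receptor genes for rearrangement, in 25 against 2. Markers of a later stage were rare, since Ms4a1, which encodes CD20, was found in 4 and 6 cells of the E17.5 libraries and in 0 cells of the others. Dntt, the terminal transferase that adds bases at junctions and that fetal B progenitors lack, had 0 UMIs in all 783 cells, which bounds the cells with a UMI, not those that express the gene, at 0.383%. Only 15 of the 104 cells carried Ltb and 21 carried Id2, against 572 and 559 of the others.

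Cells with at least 2 of Cd79a, Vpreb1, Vpreb2, Vpreb3, Igll1 and Pax5, called B-gene cells here, numbered 0, 1, 1, 6, 8, 0, 37 and 54. They were 107 of 783 (13.7%, 11.3 to 16.3), with 1 of 43 at E12.5, 15 of 122 at E14.5 and 91 of 618 at E17.5. After thinning, the definition took in 34 of 156 cells in E17.5 v1 (21.8%) and 43 of 462 in E17.5 v2 (9.31%). At equal depth the share of the selected cells was thus larger in v1, but the criteria left out unequal parts in these libraries, as given below. No cell was in both the ILC3-gene and the B-gene set, and 0 of 783 allows a share of cells with 2 or more genes of each kind of up to 0.383%. Genes of both kinds did occur together, in 14 cells with a single gene of 1 kind (7 of them from E17.5, 4 from E14.5 and 3 from E12.5). Of the 91 B-gene cells at E17.5, 89 carried Cd79b, 84 Ebf1, 51 Il7r and 21 Rag1, while 12 carried Ltb, 16 Id2, 1 Gata3 and 0 Tcf7 or Cxcr6. Cd79b was not restricted to them: 80 of 165 ILC3-gene cells also carried it, and so did 36.1% of the macrophages of E17.5 v2. As with Il22, the criteria left out part of the population, since 95 of 159 barcodes with 3 or more Vpreb3 UMIs were selected and 35 of the other 64 held Pecam1. In E17.5 v1, 29 of 37 such barcodes were selected, and 0 of the other 8 held Pecam1. In E17.5 v2, 52 of 99 were selected, and of the other 47, 31 held Pecam1 and 17 held Epcam.

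**Figure D4:**
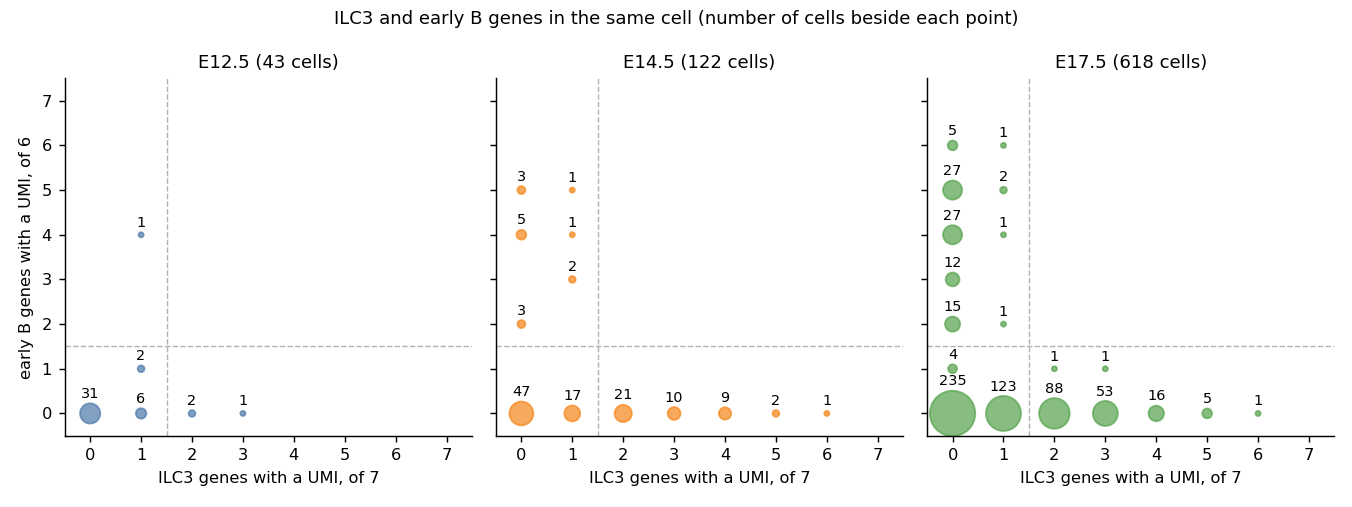
Number of lymphoid cells by how many of the 7 ILC3 genes and how many of the 6 early B genes they carry, in 3 panels for E12.5, E14.5 and E17.5, with the cell count printed above each point and dashed lines below 2 genes of each kind. Most cells lie along the axes, 14 carry at least 1 gene of each kind, and 0 of 783 carry 2 or more of both.

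The T cell genes were led by Cd3g. Cd3g, a chain of the T cell receptor complex (chromosome 9, 44969572 to 44980431, minus strand), was detected in 6, 18, 3, 13, 20, 3, 39 and 112 cells. The companion chains were far rarer, with Cd3d in 0, 1, 0, 0, 3, 1, 3 and 22 cells and Cd3e in 0, 0, 0, 0, 0, 1, 4 and 10. Of the 214 Cd3g+ cells, 29 carried Cd3d and 14 Cd3e, 132 carried Nkg7, 122 Gata3 and 49 Bcl11b, a transcription factor of T cells and ILC2, which 9 of the 569 cells without Cd3g carried. Cd3g was also present in 28.8% and Nkg7 in 71.2% of the 66 mast cells of E17.5 v2, against 0.591% and 0.256% of its epithelial cells. Cd8a was found in 2 cells, both of E17.5 v2. At least 2 of the 10 T genes listed in every matrix were found after thinning in 0, 1, 0, 0, 0, 0, 6 and 12 cells.

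Transcripts of the receptor constant regions could be read only in the Fev-Cre library, whose gene list names them. Of its 10 lymphoid cells, Trbc2 was found in 6, Trbc1 in 5, Tcrg-C1 in 4, Tcrg-C4 in 2, Trdc in 1 and Trac in 0, and Ighm in 4 and Igkc in 0. The highest Trbc2 count, 38 UMIs, was in a cell that also held the highest Ighm count, 10 UMIs, and no Cd3g. The single cell with UMIs of Cd3g, Cd3d and Cd3e held 17 UMIs of Trbc2, 9 of Trbc1, 6 of Tcrg-C1, 8 of Cd3g and 1 each of Cd3d and Cd3e. The 2 cells with 7 Il22 UMIs each also held 5 or 4 UMIs of Trbc2. A constant region UMI does not show a rearranged receptor, because unrearranged loci are transcribed too. Reporter transcripts of eGFP were found in 3 and of tdTomato in 2 of the 10 cells.

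Several NK and ILC1 genes were carried together by a small group of cells, but single genes of the list were more widespread. Nkg7 was carried by 31 of 43 cells at E12.5, 50 of 122 at E14.5 and 157 of 618 at E17.5. In the same order, the chemokine gene Ccl5 was carried by 8, 6 and 73 cells, Klrd1 by 8, 1 and 50, and the granule protease gene Gzmb by 7, 9 and 13. Gzma, a cytotoxic granule protease, was detected in 0, 2, 2, 2, 6, 0, 7 and 26 cells, Ncr1, the receptor NKp46, in 0, 1, 0, 0, 1, 0, 11 and 18, and Eomes, a transcription factor of NK cells, in 8 cells of E17.5 v2 and 0 elsewhere. Cells with at least 3 of the 15 NK and ILC1 genes numbered 1, 5, 1, 0, 1, 1, 18 and 54, 81 in all, or 6 of 43 at E12.5, 3 of 122 at E14.5 and 72 of 618 at E17.5. Of the 81, 2 were also ILC3-gene cells and 0 B-gene cells. Among the 72 of E17.5, 69 carried Ltb, 48 Cd3g, 48 Cxcr3 (a chemokine receptor of interferon-producing lymphocytes), 37 Klrd1 (the receptor chain CD94), 31 Ifng, 28 Ncr1, 24 Gzma, 24 Tbx21 (the transcription factor T-bet) and 7 Eomes. Of the same cells, 22 carried Cd3d and 8 Cd3e, so the group held both NK genes and genes of the T cell receptor complex. Ifng was carried by 0 of 165 ILC3-gene cells and 0 of 91 B-gene cells, and Ccr9, a receptor for gut and thymus homing, by 0, 2 and 22 of the ILC3-gene, B-gene and NK-gene cells.

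The ILC2 genes other than Gata3 were carried by minor shares of the cells. These shares went different ways over the stages, and none of the ILC2 genes tested was called between stages. Gata3, a transcription factor that all innate lymphoid cells and T cells need and that ILC2 carry at the highest level, was detected in 2, 9, 4, 7, 22, 4, 27 and 220 cells, at 63.0, 86.5, 99.4, 38.1, 164, 219, 137 and 224 CPM. It was carried by 76 of 165 ILC3-gene cells at E17.5 and 36 of 72 NK-gene cells. Il13, a type 2 cytokine of ILC2, mast cells and basophils, was detected in 3, 8, 1, 6, 9, 1, 6 and 8 cells and was highest in E12.5 v1, at 598 CPM, where 4 of 7 cells carried Gata2 with mast cell genes. By stage, Il13 was carried by 11 of 43, 17 of 122 and 14 of 618 cells. Hpgds, a prostaglandin D synthase of ILC2 and mast cells, was carried by 9, 9 and 15 cells, Il1rl1, the receptor of IL-33, by 6, 9 and 38, Areg, the growth factor amphiregulin, by 3, 12 and 28, and Il17rb, the receptor of IL-25, by 0, 3 and 39. Il5 was found in 5 cells in all and Ptgdr2 in 1. At least 2 of the 9 ILC2 genes were found after thinning in 0, 0, 0, 0, 4, 0, 7 and 9 cells.

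**Figure D5:**
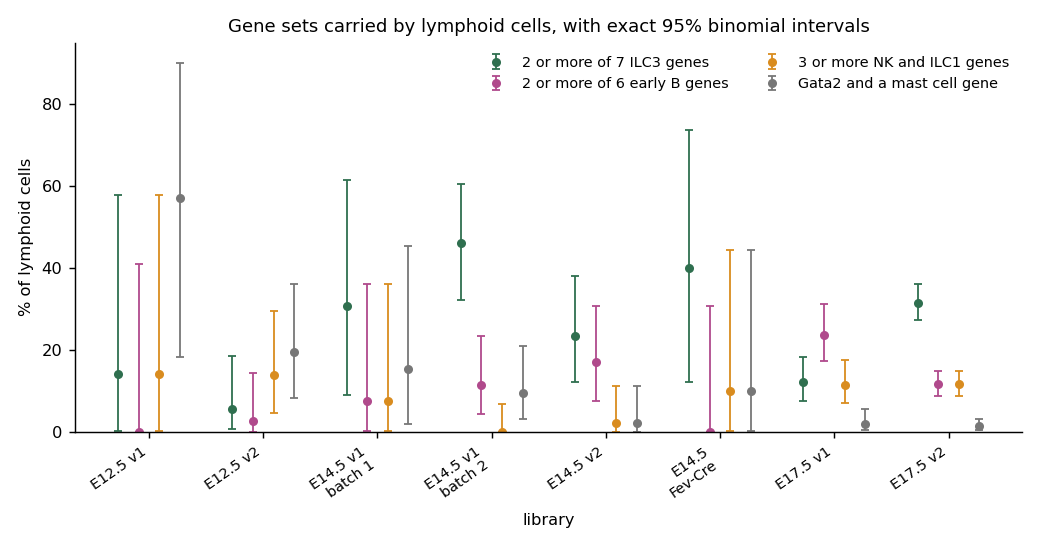
Share of lymphoid cells in each library that are ILC3-gene, B-gene, NK-gene or Gata2 and mast-gene cells, without thinning, with exact 95% binomial intervals. ILC3-gene cells range from 5.56% to 46.2%, B-gene cells reach their highest share in E17.5 v1, and Gata2 and mast-gene cells make up 57.1% in E12.5 v1 and 1.52% in E17.5 v2.

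Taking the stages in turn, the 43 cells of E12.5 held 3 ILC3-gene cells, 1 B-gene cell, 6 NK-gene cells and 5 cells with at least 2 T genes, and 11 with Gata2 and mast cell genes, of which 1 was among the NK-gene cells. The 122 cells of E14.5 held 43 ILC3-gene cells, 15 B-gene cells, 3 NK-gene cells and 15 with at least 2 T genes. The 618 cells of E17.5 held 165, 91, 72 and 75. The sets are not exclusive, since 32 of these 75 T-gene cells were also NK-gene cells and 3 were also ILC3-gene cells, while at E14.5 1 of the 15 was an NK-gene and 1 an ILC3-gene cell, and at E12.5 1 of the 5 was an NK-gene cell. Over all stages 285 cells (36.4%) fell into none of the ILC3-gene, B-gene, NK-gene, T-gene (at least 2 T genes), granulocyte-gene or mast-gene sets.

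Genes of the cell cycle were carried to different extents by these groups. A cell was counted as cycling-gene positive when it held at least 2 of Mki67, Top2a, Birc5, Cdk1, Ccnb1, Ccnb2, Pcna, Mcm5, Tyms and Rrm2. ILC3-gene cells met this in 2 of 4, 16 of 24, 8 of 11 and 4 of 4 cells of the E14.5 libraries and in 2 of 19 and 26 of 146 at E17.5. After thinning the shares were 50.0%, 37.5%, 54.5% and 50.0% at E14.5 and 10.5% and 6.85% at E17.5, with means of 48.0% ± 7.33 (SD, n = 4 libraries) and 8.69% ± 2.60 (SD, n = 2). The libraries of the 2 stages did not overlap, before or after thinning, and an exact two-sided permutation test over the libraries gave p = 0.133 at either depth, the smallest that 4 against 2 libraries allow. Because the set was chosen with its values known, that p supports nothing. B-gene cells held these genes at both stages, in 12 of 15 at E14.5 and 71 of 91 at E17.5, or 62.6% after thinning. NK-gene cells of E17.5 were between, with 41 of 72 before thinning and 31.9% after. Phase was not called, and the part of free RNA was not tested.

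The stages were then compared over the summed UMIs of the lymphoid cells of each library, with edgeR's quasi-likelihood test on 6209 genes, the kit version as a covariate and Benjamini-Hochberg adjustment. The 7 libraries with at least 10 cells entered, so E12.5 rested on E12.5 v2 alone, which was assumed to vary like the others. The p-values measure the spread between libraries that stage and kit version leave. Part of this spread lies between the E14.5 v2 and Fev-Cre libraries, which differ in sort and genotype as well as in pool. In summed counts, fewer cells of a subset and less RNA per cell cannot be told apart. At an adjusted p under 0.05, 11 genes (0.177% of those tested) were called between E17.5 and E12.5, 6 higher and 5 lower at E17.5. Between E17.5 and E14.5, 4 genes (0.0644%) were called, all higher at E17.5, and between E14.5 and E12.5 1 gene (0.0161%), lower at E14.5. At an unadjusted p under 0.05 the counts were 361, 343 and 210. With no kit term edgeR called 0 genes in each of the 3 comparisons (290, 252 and 180 at an unadjusted p under 0.05), so every call below depends on that term.

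Between E17.5 and E14.5 the called genes were led by Hebp1 and Ccdc184. Hebp1, a haem-binding protein, stood at 19.9, 126, 37.3 and 21.9 CPM in the E14.5 libraries and at 679 and 692 CPM in E17.5 v1 and v2. The fitted log2 difference was 3.81 ± 0.49 (SE; edgeR adjusted p = 0.00436). Ccdc184, a coiled-coil protein gene, stood at 0, 15.2, 3.73 and 0 CPM at E14.5 and 155 and 129 at E17.5, a log2 difference of 4.46 ± 0.56 (edgeR adjusted p = 0.00436). Nfkbie, an inhibitor of NF-κB, stood at 0, 3.81, 3.73 and 0 CPM and 78.5 and 58.1 CPM, a difference of 4.62 ± 0.73 (edgeR adjusted p = 0.0244). For these 3 genes the libraries of the stages did not overlap, and the pair of batch 2 of v1 (126 and 679, 15.2 and 155, 3.81 and 78.5 CPM) had the same direction. Without E17.5 v2 none of the 3 passed the threshold, nor did Hebp1, Ccdc184 or Nfkbie without E12.5 v2, and Nfkbie also failed it without E14.5 v1 batch 2, E14.5 v2 or E17.5 v1. The remaining call, Cela3b, a digestive enzyme gene of acinar cells, was at 19.9, 0, 0 and 0 CPM and 8.73 and 237 CPM, so its libraries overlapped (log2 difference 6.34 ± 1.00, edgeR adjusted p = 0.0244). In the rest of the E17.5 libraries Cela3b stood at 296 and 2414 CPM, and the part of free acinar RNA in this call was not tested. Of the 4 calls between E17.5 and E14.5, DESeq2 shared 2, and edgeR without E14.5 v2 also kept 2.

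Hebp1, Ccdc184 and Nfkbie were carried by ILC3-gene cells and by many cells outside the sets. At E17.5, Hebp1 was carried by 125 of 165 ILC3-gene cells, 8 of 91 B-gene cells, 17 of 72 NK-gene cells and 145 of the 292 cells in none of these, at 1427, 50.0, 181 and 666 CPM. At E14.5, 19 of 43 ILC3-gene cells carried it, at 138 CPM. Ccdc184 was carried by 79, 0, 7 and 68 cells of the same groups at E17.5 and by 2 of 43 ILC3-gene cells at E14.5, at 262 CPM and 9.22 CPM in the ILC3-gene cells of E17.5 and E14.5. Nfkbie was carried by 76, 9, 10 and 79 cells at E17.5 and by 1 of 43 ILC3-gene cells at E14.5, at 113 and 4.61 CPM in the ILC3-gene cells. Cells in none of the ILC3-gene, B-gene and NK-gene sets also held less at E14.5 than at E17.5, with Hebp1 at 40.7 and 666 CPM, Ccdc184 at 8.14 and 134 CPM and Nfkbie at 2.71 and 59.2 CPM. The lower values of E14.5 were thus not restricted to the ILC3-gene cells. In the other cells of the E17.5 libraries Hebp1 stood at 128 and 88.5 CPM.

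Between E17.5 and E12.5 a gene of the LTi and ILC3 list was among the calls. Ccr6, with the values given above, was higher at E17.5 (edgeR adjusted p = 0.0413), at least 6.31-fold against a floor of 3 UMIs in E12.5 v2, where it had none. Rasl11a, a small GTPase gene, stood at 0 CPM in E12.5 v2, 39.8, 141, 63.4 and 32.9 at E14.5 and 183 and 138 at E17.5, at least 13.3-fold higher at E17.5 (edgeR adjusted p = 0.0413). Ccdc184 was at least 12.4-fold higher (edgeR adjusted p = 0.0413). Of the 11 calls DESeq2 shared 3, and without E17.5 v2 edgeR kept 1, Hbb-y, so Ccr6, Rasl11a, Ccdc184, Prr29, Ins2, Igfbp5, Tnni2 and Mtch1 no longer passed the threshold there. Prr29, a proline-rich protein gene, stood at 3.46 CPM in E12.5 v2, 159, 240, 134 and 132 at E14.5 and 131 and 176 at E17.5, a log2 difference of 5.44 ± 0.96 (edgeR adjusted p = 0.0413). Rasl11a and Prr29 were carried by 96 and 130 of 165 ILC3-gene cells at E17.5 and by 1 B-gene cell each, by 4 and 9 of 72 NK-gene cells and by 49 and 98 of the 292 cells in none of these sets, and at E14.5 by 16 and 31 of 43 ILC3-gene cells. The 2 other genes called higher were Ins2, the insulin gene of beta cells (edgeR adjusted p = 0.0351, 0 CPM against 74.2 and 647, at least 7.15-fold), and Cela3b, for which no bound above 1 could be given. Ins2 stood at 8764 and 27162 CPM in the rest of the E17.5 libraries, and the part of free endocrine RNA was not tested.

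Genes called lower at E17.5 than at E12.5 included Hbb-y, the embryonic beta-like globin of primitive red cells. It fell from 419 CPM in E12.5 v2 to 0 and 0.551 at E17.5, with a log2 difference of -10.42 ± 0.95 (edgeR adjusted p = 0.000113), and was the single call between E14.5 and E12.5, at 19.9, 83.8, 0 and 0 CPM at E14.5 (-6.64 ± 0.94, edgeR adjusted p = 0.0263). The other cells of E12.5 v2 held it at 17059 CPM, and its part as free RNA was not tested. The call of Hbb-y between E14.5 and E12.5 was not shared by DESeq2 and was lost without E14.5 v2 or E17.5 v2. Igfbp5, an insulin-like growth factor binding protein, stood at 100.4 CPM in E12.5 v2 and at 4.36 and 2.75 at E17.5 (-5.28 ± 0.98, edgeR adjusted p = 0.0445). The call was also lost without E14.5 v1 batch 2 or E17.5 v1. Its 29 UMIs in E12.5 v2 sat in 4 of 36 cells, the rest of that library held it at 292 CPM, and the rest of the E17.5 libraries at 89.3 and 120 CPM, and the part of free RNA or of attached cells was not tested. Tnni2, a troponin gene, stood at 208 CPM against 6.55 and 16.5 (-3.50 ± 0.59, edgeR adjusted p = 0.0413). Its 60 UMIs at E12.5 sat in 8 of the 33 cells outside the ILC3-gene, B-gene and NK-gene sets. Mtch1, a mitochondrial carrier homologue, stood at 176 CPM against 111 and 17.9 (-2.97 ± 0.52, edgeR adjusted p = 0.0413), but in the other cells of the same libraries it also stood at 229 CPM against 208 and 32.0, and its call was also lost without E17.5 v1. The fifth gene called lower was Cpa3, at 318 CPM against 39.3 and 13.5. The criteria limit its level in every cell, so this call is counted among the 11 but is no finding.

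Set beside these counts, 1 gene of the lymphoid lists was called, Ccr6. It was 1 of the 12 LTi and ILC3 genes tested between E17.5 and E12.5, where 0.177% of all genes tested were called. Of these 12, 11 had a fitted difference above 0, with a median of 2.65 on the log2 scale against 0.0154 over all genes. Ltb and Il22, which helped to name the cells, are among the 12, so the list is no independent check. Of the 8 B genes tested, 0 were called and 8 had a fitted difference above 0, with a median of 2.82. Neither did a gene of the 7 NK and ILC1 genes pass the test (3 above 0, median -0.43), nor of the 5 ILC2 genes (1 above 0, median -0.95) or the 2 T genes tested (0 above 0, median -0.38). Between E17.5 and E14.5, 0 of the 12 LTi and ILC3 genes were called, 6 were above 0 and the median was -0.00056, while the 8 B genes had 0 calls, 8 above 0 and a median of 1.40. Between E14.5 and E12.5, 0 of the 12 LTi and ILC3 genes were called, 12 were above 0 and the median was 2.46. Of 18 shared lymphoid genes (such as Il7r and Ets1), 17 were above 0 between E17.5 and E12.5 (median 1.31). Some lists of other cell types also lay mostly above 0 in this comparison, and others did not. Of 9 dendritic cell genes tested, 9 were above 0 (median 3.92), of 5 granulocyte precursor genes 5 (median 2.45), of 6 erythroid genes 5 (median 6.76) and of 7 epithelial genes 5 (median 1.69). Of 7 monocyte and macrophage genes 3 were above 0 (median -0.72) and of 7 progenitor genes 2 (median -0.30). The 1 megakaryocyte gene tested was below 0 (-4.68). The part of other cell types in the lymphoid values was not tested. The genes of the stress and dissociation response (Fos, Jun, Egr1, Dusp1, Nr4a1 and Hspa1a) had 0 calls, 6 of 6 above 0 and a median of 0.72, and dissociation was longer at E17.5. The summed level of the stress list was 3463 and 2267 CPM in the E12.5 libraries, 4041 to 7021 at E14.5 and 4953 and 3992 at E17.5. Every fitted value against E12.5 rests on the single library E12.5 v2. These comparisons share libraries, and a p that misses the threshold does not show that a gene stayed the same.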

How the data were processed

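UMI counts per gene and barcode were deposited by the authors as unnormalised matrices, made from droplet 3' reads with Cell Ranger 1.1 or 2.1 and the mm10 (GRCm38) genome, per the submitters' processing notes. The Fev-Cre library was deposited in 2 alignments, of which the one with reporter sequences was used. Barcodes with at least 200 genes were kept. Cells and gene lists were chosen with earlier results of these data known. Some genes of these lists are not reported here and entered no list or set. Of the 17 T and 16 B genes used, 10 and 14 are listed in every matrix, and only the Fev-Cre gene list names the receptor constant regions. No doublet caller was run; an alternative leaves out cells with 2 or more collagen UMIs or over 1% haemoglobin.

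Shares have exact binomial and levels exact Poisson 95% intervals, and cells were thinned to 1000 UMIs with a fixed seed. A share of 0 was bounded at 3 counts. Counts were summed per library and, for libraries with 10 or more cells, tested with edgeR 4.0.16 (TMM, filterByExpr, quasi-likelihood, kit version and stage, 3 residual degrees of freedom, common dispersion 0.113), with DESeq2 1.42.0 as an alternative. Named genes are from the lists, with values for a part of those that at least 10% of the cells of a library carry or that define their list. A listed gene without values can thus be common, such as Il2rg in 401 and Ets1 in 376 of the 618 cells of E17.5. Up to 10 called genes per direction and comparison are also named, without genes of the criteria. Scripts were tested on simulated data. Python 3.11.15, numpy 2.4.6, scipy 1.17.1, pandas 2.3.3, matplotlib 3.10.9 and R 4.3.3 were used. Gene positions are from GENCODE M21. Other alternatives are given in the closing section.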

Additional observations from a re-analysis of the deposited data

Results flagged for a closer look

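Among 28 measures compared over the 4 E14.5 libraries, 8 had a library far from the other 3 by Dixon's criterion at 95%. A transcript seen in a single pool, such as Mcpt8 or Il17a, is flagged by construction. The measures also overlap, since Mpo and Mcpt8 belong to the granulocyte precursor and basophil lists. The number flagged is therefore a description and cannot be set against a rate expected by chance. The 13 lymphoid cells of E14.5 v1 batch 1 stood apart in 6 of them. Their summed level was highest for the granulocyte precursor genes, at 7717 CPM, and for the basophil genes, at 4396 CPM. Among single genes they were highest for Mpo (3540.3 CPM), the basophil protease Mcpt8 (2566 CPM) and Gata2 (716 CPM), and lowest for Il7r (59.7 CPM). Few cells held these transcripts, since 2 of the 13 cells carried the 129 UMIs of Mcpt8, 1 cell the 87 UMIs of the basophil protease Prss34 and 4 cells the 178 UMIs of Mpo. Of these 13 cells, 3 carried at least 2 granulocyte precursor genes and 2 carried Gata2 with a mast cell gene. The lymphoid cells of E14.5 v1 batch 2 were lowest for the summed ILC2 genes, at 343 CPM, and highest for Il17a, at 99.0 CPM, which 7 of the 52 cells carried.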

How the results depend on the processing

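The counts of called genes depended on several choices, and no direction of a named gene reversed in the alternatives that gave it an adjusted p. They were 11 between E17.5 and E12.5, 4 between E17.5 and E14.5 and 1 between E14.5 and E12.5. In the same order they became 88, 78 and 29 with no filter on low counts, 60, 18 and 9 without the Fev-Cre library, and 0, 0 and 0 with no kit term (edgeR; 290, 252 and 180 at an unadjusted p under 0.05). DESeq2 called 19 (3 shared with edgeR), 3 (2 shared) and 1 (0 shared). Upper quartile scaling gave 9 (8 shared), 4 and 1. Leaving out 1 of the 6 libraries other than Fev-Cre at a time gave 1 to 50, 0 to 20 and 0 to 3 calls. Without E14.5 v1 batch 1 there were 50 and 20 calls in the first 2 comparisons, without batch 2 31 and 10, and without E17.5 v1 18 and 9. Without E14.5 v2 there were 36, 4 (2 shared) and 3 (0 shared). Without E17.5 v2 edgeR called 1, 0 and 0 (172, 113 and 145 at an unadjusted p under 0.05), and without E12.5 v2 0 between E17.5 and E14.5 (276 unadjusted). Alternatives chosen after seeing the data gave 56, 16 and 8 calls without cells carrying Gata2 and a mast cell gene (10 of the 11 shared), and 33 and 12 in the first 2 comparisons without cells with collagen or haemoglobin UMIs. Without haemoglobin genes edgeR called 0 between E14.5 and E12.5 (213 unadjusted), by construction, since the single call, Hbb-y, is one of them. Requiring 2 of the 3 leukocyte genes moved the share of lymphoid cells to 0.387% in E12.5 v2, 0.674% in E14.5 v1 batch 1, 0.770% in E14.5 v2, 9.35% in E17.5 v1 and 4.34% in E17.5 v2, and a stricter rule without Lyz2 and C1q UMIs gave 3.16% in E17.5 v2. Without thinning, 16 of 40 list shares and 24 of 64 gene shares moved beyond their interval. Beyond fewer samples or other genes tested, the cause was not tested. No paired analysis was possible because the stages fitted share a single number, batch 2 of v1 at E14.5 and E17.5 (its E12.5 pool had under 10 cells), and the v2 numbers are single libraries or technical wells. Few cells at E12.5 limit every statement on that stage.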

Other observations

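Genes that place lymphoid cells in a tissue were also carried by many of them. Itga4, the alpha chain of integrins that bind VCAM1 and MAdCAM-1, was detected in 6, 27, 7, 30, 24, 9, 52 and 344 lymphoid cells, in the order of libraries used above. Ccr7, the receptor for lymph node chemokines, was detected in 0, 5, 0, 15, 6, 2, 9 and 88, and Cxcr4, the receptor for CXCL12, in 0, 1, 3, 2, 4, 0, 23 and 137. At E17.5, Ccr7 was carried by 47 of 165 ILC3-gene cells, 17 of 91 B-gene cells and 4 of 72 NK-gene cells, and Cxcr4 was found in 45 of all 104 Cd79a+ cells against 125 of the 679 others.

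The counterparts of these receptors were read in the other cells of E17.5 v2, without thinning. That library was sorted for cells without CD140a, so its mesenchymal cells are those left after the sort. Madcam1 was found in 62.6% of 227 endothelial cells against 1.30% of epithelial and 0.703% of mesenchymal cells. Cxcl13, the ligand of CXCR5, was found in 31.6% of mesenchymal and 0.256% of epithelial cells, and Vcam1 in 18.0% of mesenchymal cells. Ltbr, the receptor of membrane lymphotoxin, was found in 46.3% of endothelial, 25.8% of mesenchymal and 23.8% of epithelial cells. Tnfrsf11a, the receptor of RANKL, was found in 28.5% of macrophages and 0.788% of epithelial cells. Il22ra1, the specific chain of the Il22 receptor, was found in 0.118% of epithelial and 0.234% of mesenchymal cells, while its shared chain Il10rb was found in 32.9% and 30.1%. Il7 was found in 1.87% of mesenchymal cells. These shares are descriptions at the depth of each class, and contact between the cells was not measured.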
